A study of Homo sapiens with 40 samples.

Results

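The regions described here are 13056 H3K27ac peaks that lie inside protein-coding genes. They are neither at the start site of a protein-coding or lncRNA transcript nor in either of the enhancer lists that accompany the data. They make up 25.4% of the 51489 H3K27ac peaks in the deposited table, and 4899 of 20033 protein-coding genes (24.5%) hold at least 1 of them. The members were chosen by position alone. Of all peaks, 50680 were under 10 kb wide, 34045 of these overlapped no listed enhancer by even 1 bp, 19936 of those had their nearest edge more than 2 kb from every start site of a protein-coding or lncRNA transcript in GENCODE 44, and 13056 of those had their centre inside a protein-coding gene. That gene is called the host, and where several genes held the centre, as for 661 peaks, the shortest was taken. The lists themselves had been built from H3K27ac and H3K4me1, so H3K27ac signal entered the choice indirectly, and the counts of unlisted peaks are given as a description.

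The series compared senescent with non-senescent EndoC-βH3 cells by ChIP-seq. EndoC-βH3 is an established human pancreatic beta-cell line, labelled as wild type, immortalized with hTERT and SV40 Large T-antigen, transgenes that the tamoxifen-activated recombinase CreER can excise. Senescent cells had been treated with 4-hydroxytamoxifen for 3 weeks, and the non-senescent control cells, of the same line, had not and therefore kept the transgenes, so excision, 4-hydroxytamoxifen and senescence cannot be told apart. H3K27ac and CTCF were each measured in 3 senescent and 3 non-senescent libraries, with an input library for each. The labels do not say that replicates came from separate cultures, so standard errors and p-values measure the spread between libraries of 1 line, which may be technical.

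Acetylation of lysine 27 of histone H3 marks nucleosomes at active promoters and enhancers. Many enhancers lie in introns, where they can act on the host gene or on another gene, and active enhancers usually carry H3K4me1 as well. Intragenic H3K27ac outside annotated start sites and outside an enhancer list can therefore mark weak enhancers, alternative promoters that the annotation does not include, or acetylation that spreads through transcribed genes. The tables here cannot separate these, and no peak below is assigned to one of them.

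The deposited table holds for each peak a mean count over all 6 H3K27ac libraries, divided by size factors, and a log2 fold change of senescent over non-senescent cells with its standard error. It gives no value per library, so the level in each sample and the overlap of the groups are not shown. The direction of the scale was checked at the promoters of the proliferation gene MKI67, with a log2 fold change of -2.29 (standard error 0.14), and of the cell-cycle inhibitor CDKN1A, with 2.50 (standard error 0.16). A promoter H3K27ac peak was found for 12 of 12 beta-cell genes (INS, IAPP, PDX1, NKX6-1, NKX2-2, NEUROD1, ISL1, PAX6, ABCC8, PCSK1, SLC30A8 and CHGA), with mean counts from 204 to 16247. Of 49 marker genes of other pancreatic, stromal and immune cells, 15 had one, with mean counts from 19.2 to 3544. GCG, PRSS1, COL1A1, PECAM1 and PTPRC were among those without one. Among those with one were CD68 (3544), IRX2 (3342), IRX1 (1585), CPA1 (1498), MUC1 (1133) and KRT19 (913), each above IAPP (204).

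To show what the strongest changes look like in sequence, the central 300 bp of 3 gained and 4 lost peaks, from those with the smallest adjusted p, are printed from the plus strand of hg38. Capitals mark matches to the short motifs listed further on.
PIGU (gained), chr20:34581711-34582010: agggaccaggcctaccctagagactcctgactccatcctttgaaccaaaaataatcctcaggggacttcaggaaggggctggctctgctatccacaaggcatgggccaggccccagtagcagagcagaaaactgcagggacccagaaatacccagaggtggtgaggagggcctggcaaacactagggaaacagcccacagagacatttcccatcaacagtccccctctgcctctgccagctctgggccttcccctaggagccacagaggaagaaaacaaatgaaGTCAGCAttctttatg
AGPAT2 (gained), chr9:136674836-136675135: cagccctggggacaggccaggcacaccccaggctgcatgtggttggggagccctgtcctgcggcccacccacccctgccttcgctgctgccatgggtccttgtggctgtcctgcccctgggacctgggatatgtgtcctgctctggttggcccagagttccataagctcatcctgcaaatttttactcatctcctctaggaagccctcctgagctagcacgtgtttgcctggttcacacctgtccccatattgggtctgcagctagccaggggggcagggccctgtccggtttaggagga
SND1 (gained), chr7:128084183-128084482: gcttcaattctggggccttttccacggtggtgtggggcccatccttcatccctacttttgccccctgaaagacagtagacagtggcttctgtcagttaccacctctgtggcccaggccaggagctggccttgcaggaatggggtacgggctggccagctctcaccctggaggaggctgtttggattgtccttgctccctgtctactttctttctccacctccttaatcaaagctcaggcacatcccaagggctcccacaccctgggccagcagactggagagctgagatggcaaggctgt
MAP3K7CL (lost), chr21:29144764-29145063: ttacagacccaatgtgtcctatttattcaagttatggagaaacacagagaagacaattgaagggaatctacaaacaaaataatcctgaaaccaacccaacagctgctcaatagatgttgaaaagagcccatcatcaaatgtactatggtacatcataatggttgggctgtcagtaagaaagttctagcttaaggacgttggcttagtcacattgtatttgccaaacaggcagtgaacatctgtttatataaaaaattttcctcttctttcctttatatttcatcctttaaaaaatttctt
DAAM1 (lost), chr14:59270614-59270913: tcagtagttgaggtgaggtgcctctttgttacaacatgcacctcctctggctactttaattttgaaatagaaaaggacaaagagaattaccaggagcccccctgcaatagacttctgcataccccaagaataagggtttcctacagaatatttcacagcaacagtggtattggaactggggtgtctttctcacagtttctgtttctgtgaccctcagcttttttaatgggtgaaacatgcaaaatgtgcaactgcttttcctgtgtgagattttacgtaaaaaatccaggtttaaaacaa
OR4E1 (lost), chr14:21669370-21669669: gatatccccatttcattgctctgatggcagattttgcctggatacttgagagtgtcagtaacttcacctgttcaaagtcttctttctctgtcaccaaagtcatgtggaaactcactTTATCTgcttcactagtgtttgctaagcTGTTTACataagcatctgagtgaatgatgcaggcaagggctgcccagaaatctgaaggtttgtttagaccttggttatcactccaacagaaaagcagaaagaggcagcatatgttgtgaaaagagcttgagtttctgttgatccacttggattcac
CCDC200 (lost), chr17:43251649-43251948: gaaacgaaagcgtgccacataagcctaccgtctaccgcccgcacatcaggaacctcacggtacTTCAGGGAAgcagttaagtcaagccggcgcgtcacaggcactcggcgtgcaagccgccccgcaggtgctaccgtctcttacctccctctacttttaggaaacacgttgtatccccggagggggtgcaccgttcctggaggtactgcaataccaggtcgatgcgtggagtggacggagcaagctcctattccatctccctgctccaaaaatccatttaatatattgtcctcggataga
Matches were sparse in these 7 windows. PIGU held 1 match, to the MAF half-site, OR4E1 held 2, to the GATA and forkhead motifs, and CCDC200 held 1, to the STAT motif. The other 4 windows held 0. GC content of the 7 windows ran from 34.7% in MAP3K7CL to 61.7% in AGPAT2.

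The unlisted intragenic peaks were narrow and weak. Their median width was 668 bp (interquartile range 500 to 1118 bp), and 5094 of them (39%) were 500 bp wide, the smallest width in the table, against 16.1% of all H3K27ac peaks. The median mean count was 29.6 (interquartile range 20.2 to 55), against 235 in listed distal peaks inside genes and 118.7 over all H3K27ac peaks. Together they held 3.24% of the summed mean counts of all peaks. A mean count of at least 50 was reached by 3713 of them (28.4%), against 68.6% of all peaks. The lowest mean count was 6.97 and the highest was 3289. The median standard error of the log2 fold change was 0.38, against 0.14 in listed distal peaks inside genes. The 95% interval of the log2 fold change lay wholly within a fold of 1.5 in either direction for 714 of the peaks (5.47%), against 32.1% of all H3K27ac peaks. For most of the others a change of that size was not detectable at this depth, which is not the same as its absence. Median GC content was 42.6%, against 42.8% in listed distal peaks inside genes and 45.2% over all peaks. Listed distal peaks inside genes included 0 below a mean count of 20 and 0 of 500 bp. Lower counts and widths beside them therefore follow in part from the choice.

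H3K27ac was gained at 1165 of the 13056 peaks and lost at 942 in senescent cells (DESeq2's Wald test as deposited, adjusted p under 0.05 over all H3K27ac peaks and a fold change above 1.5). This is 16.1% of them, where the same rule called 22.6% of all 51489 H3K27ac peaks. Gains made up 8.92% of the unlisted intragenic peaks and 9.47% of all peaks, and losses made up 7.22% and 13.1%. Of the called peaks, 44.7% were losses. Losses were 58.1% of the called peaks over the whole table, 52.4% among listed distal peaks inside genes and 60.5% among unlisted distal peaks outside genes. The median log2 fold change was 0.10 (interquartile range -0.34 to 0.50), against 0.0075 over all peaks, and 56.6% of the peaks had a log2 fold change above 0. A further 2524 peaks passed the fold but not the adjusted p, and 226 passed the adjusted p but not the fold. Stricter rules left fewer calls in both sets. At an adjusted p under 0.01, 667 unlisted intragenic peaks were gained and 527 lost, where the rule called 18.5% of all peaks, 7.72% as gains and 10.7% as losses. With a fold above 2 it was 564 and 537, where 9.71% of all peaks were called, 3.91% as gains and 5.8% as losses. A Wald test against a fold of 1.5 left 77 and 53, where it called 4.64% of all peaks, 1.89% as gains and 2.76% as losses. Among peaks with at least 50 counts, 587 were gained and 381 lost, where 25.5% of all such peaks were called, 10.7% as gains and 14.8% as losses.

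**Figure D1:**
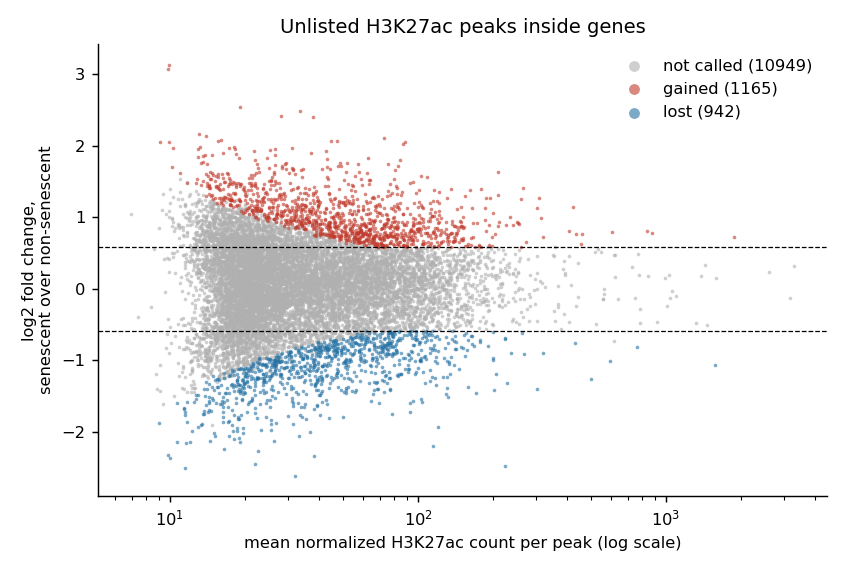
Log2 fold change of H3K27ac (senescent over non-senescent) against mean normalized count on a log scale for the 13056 unlisted peaks inside genes, 1 point per peak. Red points are the 1165 gained peaks, blue points the 942 lost peaks and grey points the rest, and the dashed lines mark a fold of 1.5. At low counts only large fold changes are coloured.

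Because calls depend on depth, the peaks were split by mean count. Below 20 counts, 8.18% of the unlisted intragenic peaks were called, against 10.9% of all peaks. Between 20 and 50 counts it was 14.3% against 18.7%, between 50 and 100 counts 25.8% against 35.6%, and at 100 counts and over 26.8% against 22.7%. The share of losses among the called peaks was lower than over all peaks in each of these 4 groups. It was 52.5% against 61.1% in the lowest, 48.3% against 58.2% and 40.1% against 58.2% in the next, and 37.6% against 57.8% in the highest. Peaks of the smallest width were called in 6.62% of cases with 147 gained and 190 lost, and wider ones in 22.2% with 1018 gained and 752 lost. Over all H3K27ac peaks it was 9.15% (278 gained, 479 lost) and 25.2% (4598 gained, 6288 lost).

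**Figure D2:**
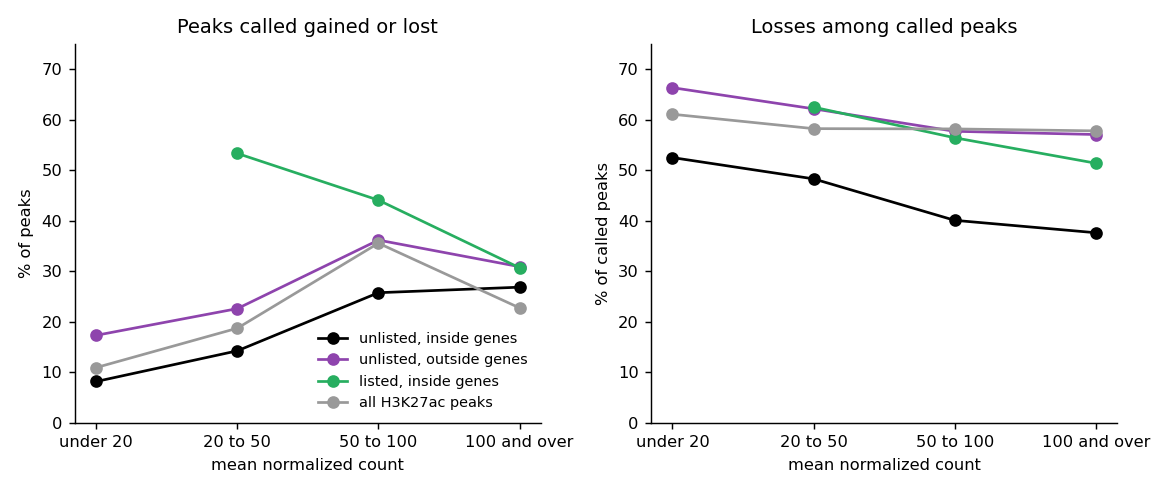
Share of peaks called gained or lost (left, % of peaks) and share of losses among the called peaks (right, %), by mean normalized count, for unlisted peaks inside genes (black), unlisted distal peaks outside genes (purple), listed distal peaks inside genes (green) and all H3K27ac peaks (grey). The black line lies below the others at every depth on the right, from 52.5% to 37.6%.

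The values next to each limit of the choice are given as a description. The members closest to a start site were in PEG10, SH3GL1 and TAT, at 2.001, 2.002 and 2.006 kb, with log2 fold changes of 0.67, 1.20 and -0.22. The peaks left out most narrowly were in TMEM65, INAVA and HADHA, at 1.999, 1.992 and 1.99 kb, with -0.0052, -0.44 and 0.29. The widest members were in AGPAT2 (9559 bp), AOPEP (9549 bp) and PTPRN2 (9172 bp), with log2 fold changes of 0.73, -0.13 and 0.16. The narrowest peaks that were too wide were in YPEL2 (10411 bp), NEURL1B (11741 bp) and ASAP1 (12416 bp), with -0.30, -0.0067 and 0.62.

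Among the 10 gained peaks with the smallest adjusted p, folds ran from 1.66 to 4.17, and all 10 had their centre in an intron. Introns and exons named here and below hold the centre of the peak, and a wide peak can reach beyond them. The first was in intron 9 of PIGU, which encodes a subunit of the enzyme that attaches GPI anchors to proteins (chr20:34580215-34583506, hg38). Its mean count was 265 and its log2 fold change 1.41 (standard error 0.13, adjusted p = 5.48e-24). AGPAT2 encodes an acyltransferase of triglyceride and phospholipid synthesis. A 9559 bp peak centred in its intron 4 (chr9:136670207-136679765), with a mean count of 1886, gained by 0.73 (0.070, 1.59e-23). GANAB, a glucosidase that trims N-glycans in the endoplasmic reticulum, gained H3K27ac in intron 1 (chr11:62639132-62642640), with a log2 fold change of 1.15 (0.11, 1.85e-23). SND1, an RNA-binding nuclease and coactivator, gained by 0.81 (0.081, 6.47e-22) in intron 18 (chr7:128081423-128087243).

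CACNA2D1 encodes the alpha-2/delta-1 subunit of voltage-gated calcium channels, which carry the current that triggers exocytosis. A peak in its intron 6 (chr7:82097466-82100991) gained by 1.64 (standard error 0.17, adjusted p = 9.94e-21) at a mean count of 210 over both states, and it lay 3.89 kb from an enhancer listed in senescent cells only. STAU1, a double-stranded RNA-binding protein, gained by 1.27 in intron 8 (chr20:49119051-49122468). DCAF5, a substrate receptor of a ubiquitin ligase, gained by 1.26 in intron 4 (chr14:69115777-69120191). MAP4, a microtubule-associated protein, had the highest fold of the 10, with a log2 fold change of 2.06 (0.23, 2.00e-17) in intron 19 (chr3:47853845-47855798) at a mean count of 88.3. TBC1D15, a GTPase-activating protein for Rab7, and F11R, a tight-junction adhesion molecule, gained by 1.40 and 1.14, each in intron 1 (chr12:71856944-71858963 and chr1:161012577-161015675).

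Among the 10 lost peaks with the smallest adjusted p, folds ran from 1.75 to 5.58 and 7 had their centre in an intron. The smallest adjusted p was found in intron 2 of MAP3K7CL (chr21:29142404-29147424), a peak with a mean count of 1570 whose log2 fold change was -1.06 (standard error 0.076, adjusted p = 3.93e-41). The largest loss by fold was in intron 2 of DAAM1, a formin that links Wnt signalling to actin (chr14:59269225-59272302), with -2.48 (0.19, 8.39e-37) at a mean count of 225. Peaks in the 3′ UTR exons of OR4E1, an olfactory receptor gene, and of KRBA2 had log2 fold changes of -1.25 and -1.003 (chr14:21667935-21671104 and chr17:8358111-8362076). CCDC200 (chr17:43251476-43252121, outside its canonical transcript) had -1.40 (0.12, 1.38e-27). Start sites of genes other than protein-coding and lncRNA genes, such as small nuclear RNA genes, were not screened. This peak, like any other member, may lie at one.

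ASH1L, a methyltransferase for lysine 36 of histone H3, lost H3K27ac in intron 5 (chr1:155418473-155419419) by a log2 fold change of -2.19 (0.22, 3.73e-21). TLE3, a Groucho-type corepressor, lost in intron 4 (chr15:70090764-70092905), with -1.94 (0.20, 5.53e-21). The remaining 3 were in intron 4 of BPHL, a hydrolase gene (chr6:3134373-3137743, -1.45), in intron 7 of GPC5, a cell-surface heparan sulfate proteoglycan (chr13:92726238-92728153, -1.31), and in intron 1 of BID, a pro-apoptotic BCL2 family member (chr22:17759774-17763441, -0.81). Of these 20 peaks, 5 overlapped the start of a transcript of another type, such as one with a retained intron, and 7 lay within 2 kb of one: AGPAT2, GANAB, SND1, DCAF5, MAP4, MAP3K7CL and TLE3. Over all members, 1525 lay within 2 kb of such a start, of which 257 were called.

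**Figure D3:**
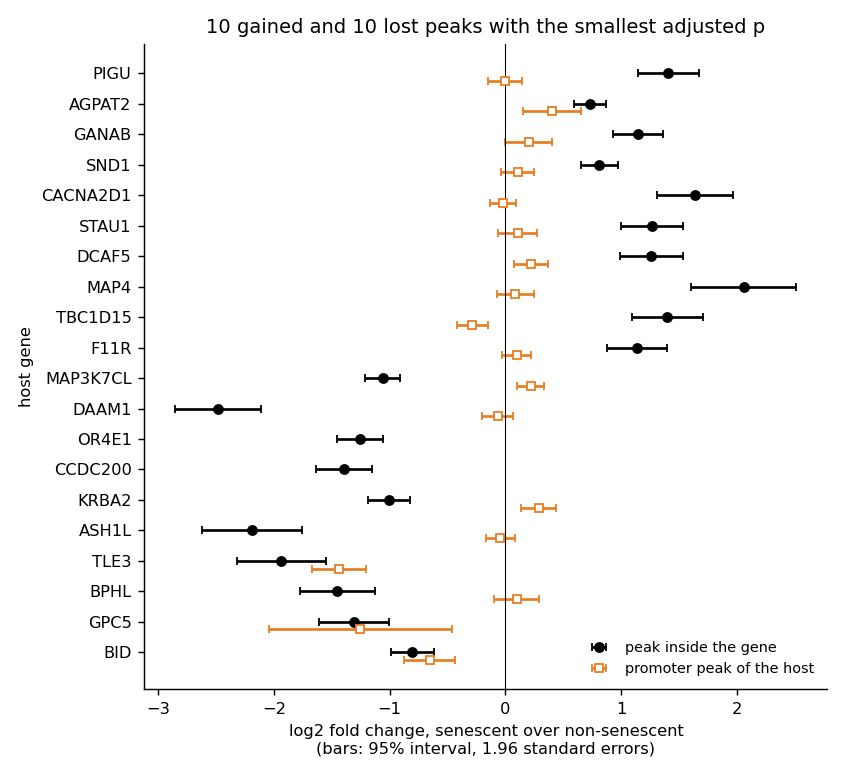
Log2 fold change (senescent over non-senescent) with 95% intervals for the 10 gained and 10 lost peaks with the smallest adjusted p, named by host gene (black circles), and for the strongest promoter H3K27ac peak of the same gene where it has one (orange squares). The promoter peaks of all 10 gained hosts stayed within a fold of 1.5, and those of TLE3, GPC5 and BID lay at -1.44, -1.25 and -0.65.

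Ranked by fold among called peaks of at least 50 mean counts, GRM4 (2.11), MAP4 (2.06), C16orf95 (1.83) and PRKAG2 (1.80) were among those that gained most, and DAAM1 (-2.48), ASH1L (-2.19), TLE3 (-1.94), FRMD4A (-1.75) and AFF3 (-1.71) lost most. GRM4 encodes a metabotropic glutamate receptor and PRKAG2 a subunit of AMP-activated kinase. AFF3 belongs to a family of elongation factors.

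The highest mean counts per kb were in the 3′ UTR of KLF15 (1171 per kb), in LAX1 (641), CCDC200 (466), CFC1 (441) and GTF2H2 (435). KLF15 was not called (log2 fold change -0.73, standard error 0.34, adjusted p = 0.076). LAX1 had 0.23 (0.058, 2.87e-04), under the fold required, and GTF2H2 had 0.088 (0.16, 0.70). CFC1 fell by 0.76 on the log2 scale (0.11, 8.89e-11). CFC1 and GTF2H2 have near-identical copies elsewhere in the genome, so reads there could be split between copies and their counts are uncertain.

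By position, 11373 of the peaks (87.1%) had their centre in an intron of the host's canonical transcript. The first intron held 3393 of them (26%), with 305 gained and 186 lost, so that 37.9% of its called peaks were losses. Later introns held 7980 (61.1%), with 731 gained and 594 lost (44.8% losses). Coding exons held 280 peaks (21 gained, 22 lost), 3′ UTRs 406 (29 gained, 24 lost) and 5′ UTRs 7 (0 called). The 990 peaks in the host gene but outside its canonical transcript had 79 gains and 116 losses (59.5% losses). Listed distal peaks inside genes lay in first introns in 23% and in later introns in 62.8% of cases, with 44.7% and 54.7% losses among those called.

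The balance of gains and losses shifted with distance from start sites and with the length of the host. At 2 to 5 kb from the nearest start site, 183 peaks were gained and 105 lost (36.5% losses). At 5 to 10 kb the share of losses was 39.5%, at 10 to 50 kb 46% and at 50 to 100 kb 44%. Beyond 100 kb, 78 peaks were gained and 113 lost (59.2%). Listed distal peaks inside genes had a similar course, with 48.8%, 47.7%, 51.7%, 58% and 59.2% losses over the same distances. In hosts of up to 50 kb, 38.1% of called peaks were losses (182 gained, 112 lost). The share was 40%, 41.7% and 45.6% in hosts of 50 to 100, 100 to 250 and 250 to 500 kb. In the 282 hosts longer than 500 kb, 160 peaks were gained and 223 were lost (58.2%). Median log2 fold changes ran from 0.17 in the shortest hosts to -0.070 in the longest. Median GC content fell from 45.6% to 40.2% and the median mean count went from 27.1 to 33.6 over the same groups, and their part in this was not tested.

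Many hosts held a single unlisted peak, and some held large clusters. Of 4899 hosts, 2485 held 1, 657 held at least 5 and 185 held at least 10. The most were found in CACNA2D1 with 87 (17.5 per 100 kb), HS6ST3 with 69, HDAC4 with 45, PTPRN2 with 43 and RIMBP2 with 39. In CACNA2D1, 6 peaks were gained and 0 lost, and log2 fold changes ran from -1.09 to 1.64 with 55 of 87 above 0. Its promoter peak had a log2 fold change of -0.023 (standard error 0.057). HS6ST3, a heparan sulfate sulfotransferase, had 1 gained and 5 lost, with 27 of 69 above 0, and its promoter peak had -0.57 (0.061). HDAC4, a histone deacetylase, had 1 gained and 1 lost, and PTPRN2, a granule membrane phosphatase-like autoantigen, 1 gained and 0 lost. RIMBP2, an active-zone scaffold, had 0 called, with log2 fold changes from -0.78 to 0.61.

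Called peaks of 1 gene mostly shared a direction. Of 363 hosts with at least 2 called peaks, 147 had gains only, 120 had losses only and 96 had both. Of 47 hosts with at least 4, 13 had gains only, 15 had losses only and 19 had both. The following hosts were picked after their values were seen. DIP2C had 9 gained and 0 lost of 37 peaks, the highest number of calls in 1 host, with 35 of 37 above 0 and a median of 0.51, while its promoter peak had 0.26 (standard error 0.070, adjusted p = 8.85e-04). LRMDA had 0 gained and 7 lost of 18, and CNTNAP2, a neurexin-family adhesion gene, 0 and 7 of 14. AFF3 had 0 and 7 of 7, and KCND3, a potassium channel gene, 0 and 7 of 8 with a promoter peak at -1.88 (0.14). PTPRT, a receptor phosphatase, had 0 and 6 of 23, and its promoter peak fell by 0.94 (0.23, 3.21e-04).

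Neighbouring called peaks of the same gene shared a direction more often the closer they were. Within 5 kb, 79 of 83 consecutive pairs had the same direction (95.2%). At 5 to 20 kb it was 80 of 91 (87.9%), at 20 to 100 kb 168 of 206 (81.6%) and beyond that 122 of 178 (68.5%). Listed distal peaks inside genes gave 97.7%, 88.3%, 75.3% and 63.1% over the same distances. Neighbouring peaks share libraries and may be parts of 1 acetylated stretch, so these pairs are not independent observations.

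The direction of the unlisted peaks also went with that of listed enhancer peaks in the same host. Where the listed distal peaks of the host included gains but no losses, 316 unlisted peaks were gained and 53 lost (14.4% losses). Where they included losses but no gains, 98 were gained and 325 lost (76.8%). Hosts with listed peaks of which none was called had 274 gained and 170 lost (38.3%), and hosts with both kinds had 90 and 110 (55%). In hosts with no listed distal peak, which held 3916 of the peaks, 387 were gained and 284 lost (42.3%). Median log2 fold changes were 0.26 beside gains, -0.21 beside losses and 0.16 with no listed peak. Listed and unlisted peaks were measured in the same H3K27ac libraries, and 3326 unlisted peaks lay within 5 kb of a listed enhancer. The shared direction is therefore not independent evidence of the change.

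The nearest listed enhancer was also read by its list. When it lay within 5 kb and was listed in senescent cells only, 54 peaks were gained and 7 lost (11.5% losses), and when it was listed in non-senescent cells only, 20 were gained and 63 lost (75.9%). With an enhancer of both lists at that distance, 159 were gained and 88 lost (35.6%). Beyond 100 kb the shares of losses were 51.5%, 51.8% and 47%. Both the listing and the change were measured in one set of H3K27ac libraries, so the pattern is not independent evidence of the change, and the nearest enhancer need not lie in the host gene.

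**Figure D4:**
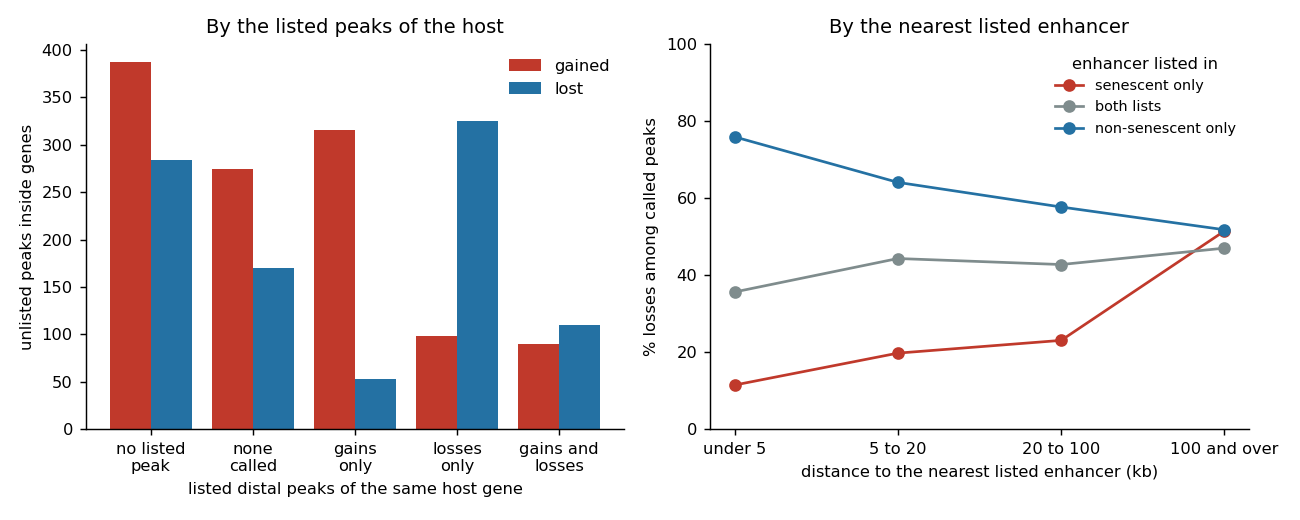
Left, numbers of gained (red) and lost (blue) unlisted peaks inside genes by what the listed distal peaks of the same host did: 316 against 53 beside gains only, and 98 against 325 beside losses only. Right, share of losses among called unlisted peaks (%) by distance in kb to the nearest listed enhancer, for enhancers listed in senescent cells only (red), non-senescent cells only (blue) or both (grey): 11.5% and 75.9% within 5 kb, and 51.5% and 51.8% beyond 100 kb.

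A called host promoter was more frequent beside lost than beside gained peaks, as a count with no test. A promoter H3K27ac peak of the host was found for 12004 of the 13056 peaks, and the one with the highest mean count was used. Beside 1057 gained peaks, 42 promoters were gained (3.97%) and 45 lost (4.26%), and the median promoter log2 fold change was 0.092. Beside 747 lost peaks, 13 promoters were gained (1.74%) and 179 lost (24%), with a median of -0.19. Beside the 10200 peaks that were not called, 2.16% of promoters were gained and 5.66% lost, with a median of 0.053. Over the whole table, 9.47% of peaks were gained and 13.1% lost. The promoter had the sign of the called peak in 1199 of 1804 cases (66.5%). Across the 12004 peaks, Spearman's rho between the log2 fold change of the peak and that of the host promoter was 0.22, a description only, since peaks of 1 gene share a promoter value and all share the same 6 libraries. Listed distal peaks inside genes had 5.88% gained promoters beside gains and 21.2% lost promoters beside losses.

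Gene groups were read from 12 lists of symbols, against 8.92% gained and 7.22% lost over all unlisted intragenic peaks and a median of 0.10. Of the list peaks named below, those in CHD2, ARID1B, MCM7, ADAR, SMAD4, SMAD7 and LTBP1 overlapped the start of a transcript of another type. Those in RFX2 and RAPGEF4 lay within 2 kb of one. In the list of 48 beta-cell transcription factors, 22 genes were hosts of 131 peaks, with 14 gained and 3 lost and a median of 0.14. ST18, a zinc-finger factor, gained by 1.15 (standard error 0.17, adjusted p = 5.37e-10) in intron 2 (chr8:52368237-52370154). GLIS3, a Krüppel-like factor needed for beta-cell development, gained by 1.12 (0.22) and 0.98 (0.22) at separate peaks in its intron 2. It held 4 of the 14 gains and 1 of the 3 losses, among 12 peaks whose lowest log2 fold change was -0.93. RFX2, a winged-helix factor, had -1.41 (0.24, 4.18e-08) in intron 6. Of the promoter peaks of these 3 genes none was called, with log2 fold changes of 0.15, 0.11 and -0.012.

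Ion channel and calcium genes (45 genes, 32 hosts, 290 peaks) had 24 gained and 13 lost, with a median of 0.10, and CACNA2D1 alone held 6 of the gains. The inositol trisphosphate receptor gene ITPR2 gained by 1.12 (0.17, 1.69e-09) in intron 37, and the kainate receptor gene GRIK2 by 1.12 (0.20, 2.01e-07) in intron 2. SCN3A, a sodium channel gene, had -1.12 (0.17, 1.20e-09) in intron 19. Secretory granule and exocytosis genes (57 genes, 34 hosts, 231 peaks) had 12 gained and 6 lost, 7.79% in all, with a median of 0.21. CADPS, which primes dense-core vesicles, gained by 0.76 (0.17, 5.56e-05) and 0.82 (0.18, 5.63e-05) in intron 6, and its homologue CADPS2 had -1.82 (0.42, 8.17e-05) in intron 14. PCSK1, the proinsulin convertase, had -0.94 (0.24, 4.61e-04) in its 3′ UTR and -1.41 (0.085) at its promoter.

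Hormone, cAMP and insulin signalling genes (62 genes, 36 hosts, 214 peaks) had 18 gained and 13 lost, with a median of 0.10. Gains were found in the kinase gene PRKCE (1.22, standard error 0.30) and in CASR, the calcium-sensing receptor gene (1.26, 0.32), whose promoter peak had 0.53. Losses were found in the kinase gene PRKCH (-1.88, 0.47), with its promoter peak at -0.88, and in RAPGEF4, a cAMP-regulated exchange factor (-2.02, 0.50). Chromatin regulators (87 genes, 43 hosts, 241 peaks) had 24 gained and 7 lost and a median of 0.25. The chromatin remodellers CHD6 (0.93, 0.14) and CHD2 (1.53, 0.30) and the H3K36 methyltransferase SETD2 (0.89, 0.14) gained, and ARID1B, a BAF complex subunit, had -0.84 (0.17) in intron 18.

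Peaks in neuronal adhesion and axon guidance genes had more losses than gains, while the numbers of hosts with each were closer. The 80 genes included 65 hosts of 424 peaks, with 30 gained and 52 lost and a median of -0.11. Gains were found in 25 hosts and losses in 28, and 9 hosts had both. PTPRT alone held 6 of the losses. PTPRT had -1.47 (0.20, 4.54e-12) in intron 11 and SEMA3C, a secreted semaphorin, -1.23 (0.18, 2.48e-10) in intron 17. CNTN5, a contactin, gained by 1.38 (0.19, 1.47e-11) in its 3′ UTR and OPCML, an IgLON adhesion protein, by 1.002 (0.14, 1.72e-11) in intron 4.

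Cell cycle and E2F target genes (72 genes, 19 hosts) had 41 peaks, with 3 gained and 6 lost and a median of -0.28. CENPP (-1.28, standard error 0.32), BRCA2 (-1.86, 0.52) and CDK6 (-1.41, 0.43) lost H3K27ac in introns, and the promoter peaks of the last 2 had -0.74 and -0.71. MCM7, a replicative helicase subunit, gained by 0.73 (0.12, 4.08e-08) at a 4410 bp peak centred in intron 13, and its promoter peak had -0.21. Genes of p53 targets and arrest (55 genes, 8 hosts) had 19 peaks, with 4 gained and 2 lost and a median of -0.072. The gains lay in intron 1 of TP63 (1.76, 0.31 and 1.33, 0.45), a p53 family gene for which no promoter peak was found, and in ASCC3 (0.67, 0.18 and 1.25, 0.34), a helicase gene.

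Interferon and antigen presentation genes (71 genes, 11 hosts) had 25 peaks, with 5 gained and 1 lost and a median of 0.58. ADAR, an RNA-editing enzyme induced by interferon, gained by 1.36 (0.20, 9.02e-11) in intron 2 (chr1:154599152-154600720), with a promoter peak at 0.45. AP3B1, an adaptor subunit gene, gained by 1.46 (0.51). In JAK1, a kinase of interferon receptors, a 500 bp peak gained by 2.17 (0.62, 0.0020) at a mean count of 13. The other unlisted peaks of JAK1 had higher counts and were not called, with -0.14, -0.40, -0.12 and -0.32. Its promoter peak had 0.063. Secretory senescence factors (59 genes, 10 hosts) had 27 peaks, with 1 gained, in the chemokine gene CXCL12 (1.06, 0.33), and 4 lost, among them IGFBP2 (-0.94, 0.25), NRG1 (-1.07, 0.32) and IGFBP4 (-1.24, 0.42). TGF-beta, Wnt, Notch and Hippo genes (67 genes, 31 hosts, 106 peaks) had 8 gained and 10 lost and a median of -0.00090. TCF7L1 (1.70, 0.32) and SMAD4 (1.19, 0.23) gained, and SMAD7 (-1.30, 0.25) and LTBP1 (-2.45, 0.50) lost. Markers of other pancreatic and stromal cells (49 genes, 8 hosts) had 20 peaks, with 1 gained, in LOXL4 (1.48, 0.48), and 1 lost, in CFTR (-0.999, 0.42).

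CTCF peaks overlapped 1422 of the unlisted intragenic peaks (10.9%), against 22.1% of listed distal peaks inside genes and 26.9% of all H3K27ac peaks, which are wider. Per Mb of peak the numbers were 119, 69.2 and 115. CTCF overlapped 8.07% of the gained, 15.4% of the lost and 10.8% of the peaks not called. The median CTCF log2 fold change was 0.13 inside gained and -0.072 inside lost unlisted intragenic peaks. It was 0.13 and -0.17 in listed distal peaks inside genes, 0.18 and -0.12 in unlisted distal peaks outside genes, and 0.069 and -0.19 over all H3K27ac peaks. Inside the unlisted intragenic peaks, 1389 CTCF peaks were counted, of which 30 were gained and 22 lost (adjusted p under 0.2 and fold above 1.5) and 241 had no adjusted p. Over all 51457 CTCF peaks the same rule called 5.58%, with 2.29% gained and 3.28% lost. Where both marks were called, 5 pairs were both gained, 7 were both lost and 2 had CTCF gained with H3K27ac lost. The pattern was not particular to these peaks. Over all H3K27ac peaks, CTCF was gained at 38 and lost at 14 of the gained peaks. It was gained at 11 and lost at 108 of the lost peaks.

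The called CTCF peaks with the smallest adjusted p were in CENPF, a kinetochore gene (chr1:214658234-214659828), with a CTCF log2 fold change of 0.88 (standard error 0.18, adjusted p = 3.35e-04) beside an H3K27ac value of 0.026 (0.39), in C6orf132 (chr6:42103642-42105052), with -0.76 (0.16, 7.44e-04) beside -2.23 (0.54, 2.06e-04), and in CCDC200 (chr17:43251475-43251963), with -1.23 (0.27, 0.0012) beside -1.40. Regions of Rb specific to senescent cells overlapped 5 of the 13056 unlisted intragenic peaks (0.038%), against 0.69% of all H3K27ac peaks. Per Mb of peak it was 0.42 against 2.95. All H3K27ac peaks include those at start sites, which the choice left out here. Listed distal peaks inside genes, also away from start sites, had 0.18% and 0.56 per Mb.

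Short motifs were counted on both strands in the central 300 bp. AP-1, the site of FOS and JUN dimers, was searched as TGANTCA, and the half-site of the MAF factors as TGCTGAC. Forkhead factors were searched as TGTTTAC, and NEUROD1 and its relatives as the E-box CAGATGG. Homeodomain factors in general were searched as TAATTA, and the islet factor NKX2-2 as CACTTAA. The hepatocyte nuclear factor motif HNF1 was searched as GTTAATNAT, and the half-site of RFX factors as GTTGCCA. The Hippo pathway factors of the TEAD family were searched as CATTCCA. ETS factors were searched as CCGGAAG, and the cell-cycle factors of the E2F family as GGCGGGAA. The promoter motif of SP and KLF factors was searched as GGGGCGGG, and that of NF-kappaB as GGGANTTCC. The interferon response element was searched as GAAANTGAA, and the STAT motif as TTCNNNGAA. The palindrome of SMAD factors was searched as GTCTAGAC, and the cAMP response element as TGACGTCA. The p53 pair and the CTCF core were searched by their consensus, and the zinc-finger factors named for the motif that they bind, GATA, as AGATAA. Matches may overlap each other. A match is a description of letters and not a bound site, and no letters say anything about a factor that was not measured.

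The NeuroD-type E-box was found in 12.8% of lost peaks (121), 7.04% of gained (82) and 8.17% of those not called, against 8.5% of all H3K27ac windows. Its share was also higher in lost than in gained peaks within each quartile of GC content, at 7.89% against 4.97%, 13.8% against 7.80%, 14.3% against 8.79% and 17.6% against 8.76%. The split was not particular to these peaks. Over all H3K27ac peaks the E-box was found in 13.2% of lost and 6.83% of gained peaks. In listed distal peaks inside genes it was 16.8% and 6.97%. The MAF half-site was found in 7.55% of gained (88), 5.10% of lost (48) and 4.80% of uncalled peaks, against 5.09% of all windows. In the second GC quartile the order was the other way round, with 5.49% of gained and 6.58% of lost peaks. Over all H3K27ac peaks the MAF half-site was found in 8.41% of gained and 4.42% of lost peaks. In listed distal peaks inside genes it was 8.82% and 4.92%. AP-1 was found in 12.7% of gained, 11% of lost and 10.7% of uncalled peaks, against 9.27% of all windows. Forkhead motifs were found in 5.58% of gained and 8.07% of lost peaks, against 5.99% of all windows, but in the lowest GC quartile in 7.45% and 7.14%. AP-1 was likewise lower in gained than in lost peaks in the third quartile, at 9.21% and 9.82%. Over all H3K27ac peaks AP-1 was found in 12.1% of gained and 9.32% of lost peaks, and forkhead motifs in 5.72% and 7.58%.

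GC-rich promoter motifs were rare. ETS was found in 0.88% of the unlisted intragenic peaks against 3.48% of all windows, SP/KLF in 1.06% against 6.89% and E2F in 0.25% against 1.26%. All windows include those at start sites, which the choice left out here, so lower shares follow from the choice. In listed distal peaks inside genes the shares were 1.35% for ETS, 1.56% for SP/KLF and 0.36% for E2F. Among lost peaks, E2F matches were found in 1.17% (11 peaks) and SP/KLF in 2.55% (24 peaks), against 0.26% and 0.86% of gained and 0.16% and 0.96% of uncalled peaks. Over all H3K27ac peaks E2F was found in 2.02% of lost and 0.37% of gained peaks, and SP/KLF in 6.40% and 2.48%. In listed distal peaks inside genes it was 0.63% and 0.39% for E2F, and 1.62% and 1.24% for SP/KLF. Of the 11 lost peaks with an E2F match, the smallest adjusted p was found in UHRF1, a cofactor of DNA methylation (-2.001, standard error 0.40, adjusted p = 5.93e-06), whose promoter peak had -1.57. The hosts' promoter peaks went both ways, from -2.09 in PHGDH, the entry enzyme of serine synthesis, to 0.82 in CCDC113, with 0.27 in EML6 and 0.13 in DSTYK. The PHGDH peak itself overlapped the start of another transcript. These hosts were picked after their values were seen. GATA motifs were found in 22.1% of gained and 18.9% of lost peaks, against 16.4% of all windows, and in the third GC quartile in 14.6% and 15.2%. Over all H3K27ac peaks they were found in 18.2% of gained and 17.9% of lost peaks, and in listed distal peaks inside genes in 17.3% and 21.4%.

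**Figure D5:**
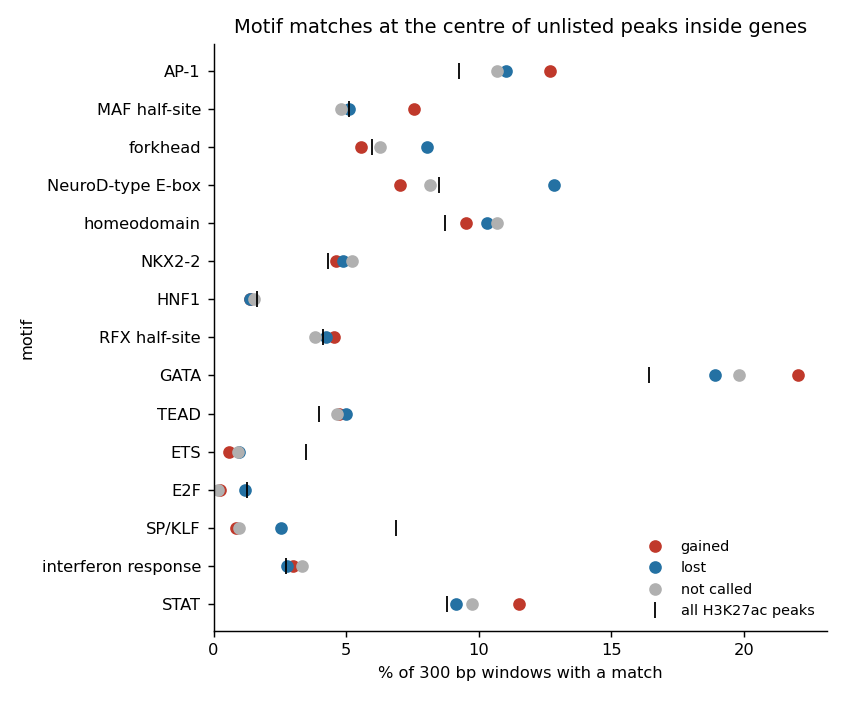
Share of central 300 bp windows with a match (%), for 15 motifs, in gained (red), lost (blue) and uncalled (grey) unlisted peaks inside genes and in all H3K27ac peaks (black bar). The NeuroD-type E-box stands at 12.8% in lost and 7.04% in gained peaks, and the MAF half-site at 7.55% in gained and 5.10% in lost.

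A p53 pair, here 2 consensus half-sites no more than 3 bp apart, was found in 4 of the 13056 windows, of which 3 were gained and 0 lost. Over all H3K27ac windows it was found in 21, of which 11 were gained and 2 lost. The 4 members are few and were singled out after their values were seen. The 3 gained ones are printed as 100 bp of the plus strand of hg38 with the pair in capitals.
MED4, chr13:48066711-48066810: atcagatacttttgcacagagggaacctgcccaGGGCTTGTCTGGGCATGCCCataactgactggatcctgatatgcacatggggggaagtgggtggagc
NEO1, chr15:73125456-73125555: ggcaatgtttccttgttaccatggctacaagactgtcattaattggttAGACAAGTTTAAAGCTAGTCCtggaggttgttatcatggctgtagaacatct
NDUFAF5, chr20:13800869-13800968: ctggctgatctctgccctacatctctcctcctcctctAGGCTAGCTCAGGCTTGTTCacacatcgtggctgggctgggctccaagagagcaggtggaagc
MED4, a Mediator subunit gene, had a log2 fold change of 1.98 (standard error 0.60, adjusted p = 0.0040) at a mean count of 13.2, outside its canonical transcript. NEO1, the netrin receptor neogenin, had 1.26 (0.43, 0.011) in intron 3, and NDUFAF5, an assembly factor of respiratory complex I, had 1.17 (0.37, 0.0059) in intron 6. ALMS1, a centrosomal protein gene, had 0.50 (0.33, 0.22) in intron 15 and was not called. The host promoter peaks of these 4 genes had log2 fold changes between -0.034 and 0.25.

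Across the peaks, Spearman's rho between GC content and log2 fold change was -0.049 (-0.070 over all H3K27ac peaks), as a description of peaks that share libraries and base composition. From the lowest to the highest GC quartile, losses made up 37.5%, 46.8%, 48.4% and 51.9% of the called unlisted intragenic peaks, against 48.6%, 55.7%, 59.9% and 70.7% over all peaks. By chromosome, the share of losses ran from 30.3% on X to 60% on chromosome 21, and it was above 50% on 5 of the 23 chromosomes with at least 20 called peaks.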

How the data were processed

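The members and gene lists were chosen with earlier results of these data known. The motif letters were set after the tables had been opened. Per the study's methods, the authors aligned reads to hg38 with Bowtie2, used HOMER for H3K27ac and MACS2 for CTCF, each against input, and compared raw read counts in peaks with DESeq2. For CTCF the methods describe peaks that hold its motif. Whether the CTCF table used here holds only these was not given, and it was used whole. Versions and the joining of replicates were not given in the sources used here. The deposited mean signal is the authors' mean of size-factor-normalized counts over all libraries. The deposited log2 fold changes, with standard errors, are the authors' own, senescent over non-senescent, as are the deposited p-value and its Benjamini-Hochberg adjusted form, missing for 11972 of 51457 CTCF peaks. These comparison columns were used because the tables hold no other measurement, and no values per library were used here, so depth per library is unknown. The deposited region lists hold positions only. Division by size factors would hide a shift of the mark that all peaks share.

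From these, peaks were classed by position with GENCODE 44 and called at an adjusted p under 0.05 (H3K27ac) or 0.2 (CTCF) and a fold above 1.5. The tables share 8641 start positions with the enhancer lists unshifted, so both were read as 0-based and printed with 1 added to the start. 0 peaks ended beyond their hg38 chromosome. GC content and motifs came from the hg38 sequence. Intervals are 1.96 standard errors on either side. Class comparisons are counts and medians without a test, since peaks are not replicates. A Wald test against a fold of 1.5 was an alternative, tested on simulated data. Peaks were named by a rule: the 10 gained and 10 lost with the smallest adjusted p, the 5 with the largest fold each way at 50 counts or more, the 5 highest per kb, the 5 hosts with most members, up to 4 called per list, the 3 CTCF peaks with the smallest adjusted p and those next to the width and distance limits. Windows of 300 bp came from the first 4 gained and first 4 lost of the list by adjusted p, leaving out chromosome 8. Some items that the rule picks are not reported here. Python 3.11.15, pandas and scipy 1.17.1 were used.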

Additional observations from a re-analysis of the deposited data

How the results depend on the processing

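No paired analysis was possible because the tables hold no values per library, and leaving out a replicate was not run for the same reason. Gained and lost peaks numbered 667 and 527 at an adjusted p under 0.01, 564 and 537 at a fold above 2, 77 and 53 under a Wald test against a fold of 1.5, and 587 and 381 at a mean count of at least 50. The median log2 fold change was 0.086 after subtraction of GC-decile medians. Losses among called peaks, 44.7% as reported, were 39.4% at a mean count of at least 50 and, in alternatives chosen after seeing the data, 42.5% in peaks wider than 500 bp, 41.7% in hosts of at most 500 kb, 42.3% in hosts with no listed distal peak and 42.5% with 1 called peak per host. With the CTCF centre required inside the peak, 869 peaks held one. Within 1 kb, 10 had an Rb region. At an adjusted p under 0.05, CTCF calls inside the peaks were 13 gained and 8 lost. The number of members ran from 11531 to 13568 under the other definitions of distance, start sites, list overlap and host. The low counts of these peaks limit what can be called.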
